A study of Mus musculus with 13 samples.

Results

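NF-kB is a family of dimeric transcription factors, and 10 genes of it were followed here in the mouse forebrain: the subunits Nfkb1, Nfkb2, Rel, Rela and Relb, the cytoplasmic inhibitors Nfkbia, Nfkbib and Nfkbie, the nuclear IkB protein Nfkbiz, and Ikbkb, the catalytic subunit of the IkB kinase. They were taken by name from the table of estimated counts, which holds 48795 genes, and all 10 were present. RNA had been sequenced from the right brain hemisphere, cut free of olfactory bulb and cerebellum, of mice at postnatal day 11. The 5 nlsYAP5SA mice had the genotype NexCre +/- YAP5SAnls +/-, so they carried 1 NEX-Cre allele, which expresses Cre recombinase from the Neurod6 locus, and 1 allele of a conditional transgene for a nuclear, active form of YAP1. The 5 control mice were littermates with the genotype NexCre -/- YAP5SAnls +/-, which carry the transgene and lack Cre, and the 3 C57BL/6 mice were wild-type and age-matched. All 13 mice had the C57BL/6J background. Each library came from 1 mouse, the transgene is recombined only in the NEX-Cre lineage while the whole hemisphere was sequenced, and the labels do not assign each mouse to its litter.

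In resting cells NF-kB dimers are held in the cytoplasm by IkB proteins. The kinase that Ikbkb encodes phosphorylates the IkB proteins, which are then degraded, and the freed dimers enter the nucleus and activate genes for inflammation and cell survival, the gene of IkB alpha (Nfkbia) among them. In the alternative route the Nfkb2 precursor is processed and pairs with Relb. The family is linked to ependymoma because the most common supratentorial form carries a fusion of C11orf95 with RELA, whereas a rarer form carries fusions of YAP1, the gene whose active form these mice express. The comparison asked whether the mRNA of the NF-kB genes, and of genes listed in earlier work for RELA-fusion ependymoma, differed between nlsYAP5SA and control hemispheres.

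Library totals lay between 20871566 and 25524349 estimated counts. Levels are given as CPM, the counts of a gene relative to the library total after TMM scaling over all 13 libraries. Differences are log2 fold changes of edgeR's quasi-likelihood fit, whose p-values were adjusted by Benjamini-Hochberg across every gene in the test, and a gene was called at an adjusted p of 0.05 or less. Yap1 itself was higher in nlsYAP5SA, with 22.6 to 26.6 CPM against 19.96 to 22.3 in control (log2 fold change 0.23, SE 0.06, edgeR adjusted p = 0.0361). This call was lost in 16 of 22 other fits, with the log2 fold change between 0.18 and 0.25 in all 22: with the Y-linked covariate described below the edgeR adjusted p was 0.366, and in 8 of 10 fits without a mouse it was above 0.05. Whether transgene reads are counted under this gene is not given in the sources used here. Neurod6, a gene of forebrain projection neurons whose locus holds the Cre, was expressed in all libraries and was lower in nlsYAP5SA, with 38.9 to 56.8 CPM in nlsYAP5SA and 91.5 to 110.0 in control. Only the nlsYAP5SA mice carry Cre at this locus, so the Cre allele itself and a change in these neurons cannot be told apart. One feature of the libraries divided the groups unevenly. The summed level of the Y-linked genes Ddx3y, Eif2s3y, Kdm5d and Uty was 91.0 to 143 CPM in 9 libraries and at most 0.0942 CPM in the other 4. Those 9 were all 5 controls, nlsYAP5SA replicates 3 and 4, and C57BL/6 replicates 1 and 3, so nlsYAP5SA replicates 1, 2 and 5 and C57BL/6 replicate 2 had no Y-linked expression. Sex is not given in the labels, and between nlsYAP5SA and control it cannot be fully told apart from genotype, so the NF-kB genes and the calls of the pathway and ependymoma lists are given below with and without account of it. Cell type markers and the genes most like Nfkb2 are given only without it.

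None of the 10 NF-kB genes was called between nlsYAP5SA and control, where 10.8% of all 16315 genes tested were called in either direction, 7.36% as higher and 3.44% as lower. Of the 10, 7 had a higher fitted level in nlsYAP5SA (Nfkb1, Nfkb2, Rel, Rela, Nfkbia, Nfkbie and Nfkbiz) and 3 a lower one (Relb, Nfkbib and Ikbkb). Their median log2 fold change was 0.20, beside -0.01 over all genes tested, and the fitted changes ran from -0.26 to 0.49. At an unadjusted p of 0.05 or less stood 3 of the 10, Nfkb2, Ikbkb and Nfkbia, beside 24.4% of all genes. In none of the 10 did the 5 nlsYAP5SA libraries lie wholly above or below the 5 controls, which 10.1% of all genes did.

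**Figure D1:**
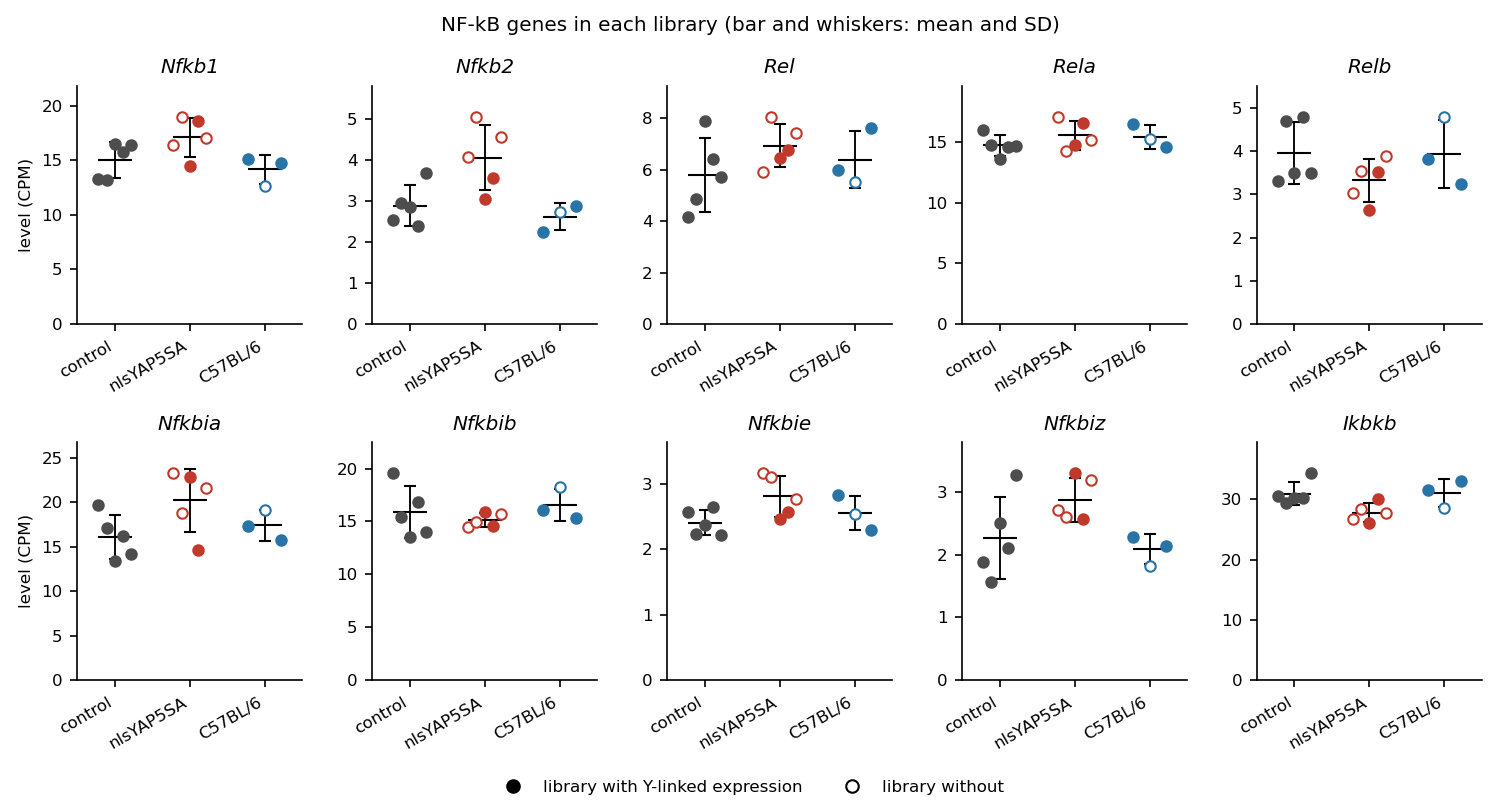
Level of each NF-kB gene (CPM, axes from 0) in each library of the 3 groups; points are libraries, open where Y-linked genes were not expressed, and the bar with whiskers is the mean with SD. The groups overlap between control and nlsYAP5SA in every panel, and the 3 highest Nfkb2 points, 4.07 to 5.04 CPM, are the open nlsYAP5SA points.

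Among the subunits, Nfkb2 (ENSMUSG00000025225, chr19:46304320-46312385, plus strand, GRCm38), which encodes the p100 precursor of p52, had the smallest p. In control replicates 1 to 5 it stood at 2.54, 2.94, 2.83, 2.39 and 3.68 CPM, and in nlsYAP5SA replicates 1 to 5 at 4.07, 5.04, 3.03, 3.57 and 4.54 CPM. The C57BL/6 libraries had 2.24, 2.73 and 2.87 CPM. All 5 nlsYAP5SA values were above the control mean of 2.88 ± 0.50 CPM (SD, n = 5), yet only replicates 1, 2 and 5 exceeded the highest control; these are the libraries without Y-linked expression, while replicates 3 and 4 lay within the control range. The log2 fold change was 0.49 (SE 0.16, 95% interval 0.14 to 0.84), with an unadjusted p of 0.00981 and an adjusted p of 0.0749 by edgeR. With the Y-linked level as a covariate it was 0.22 (SE 0.18, edgeR adjusted p = 0.719), and among only the libraries with Y-linked expression 0.19 (SE 0.20, edgeR adjusted p = 0.852). C57BL/6 replicate 2, the library of that group without Y-linked expression, was at 2.73 CPM, between the other 2. DESeq2's Wald test on the same samples put the adjusted p at 0.0493, in a fit that called 13.8% of all genes, and the edgeR call was gained without control replicate 5 (adjusted p = 0.0431) and without nlsYAP5SA replicate 3 (adjusted p = 0.0341). On the opposite strand, the annotated exons of AC114539.1 and Psd overlap 11.6% and 6.52% of the exons of Nfkb2, and since no strand setting is given, reads of these genes could not be told apart there.

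Rela (ENSMUSG00000024927, chr19:5637483-5648130, plus strand), the p65 subunit and the partner in the ependymoma fusion, was nearly level across the groups. Its control libraries had 15.99, 14.8, 13.6, 14.6 and 14.7 CPM, its nlsYAP5SA libraries 17.1, 14.3, 14.7, 16.6 and 15.2 CPM, and its C57BL/6 libraries 16.5, 15.2 and 14.6 CPM. The 3 ranges overlapped, and the log2 fold change between nlsYAP5SA and control was 0.08 (SE 0.07), with a 95% interval from -0.08 to 0.24, a fold of 0.944 to 1.18 (edgeR adjusted p = 0.566). With the Y-linked covariate it was 0.08 as well (SE 0.10). The mouse counterpart of the human fusion partner C11orf95, listed as 2700081O15Rik, was between 59.0 and 71.7 CPM in control and 49.1 and 67.9 CPM in nlsYAP5SA and was not called (log2 fold change -0.19, SE 0.09, edgeR adjusted p = 0.237). L1cam, a cell adhesion gene used as a marker of RELA-fusion ependymoma, had 274 to 316 CPM in control and 244 to 310.4 CPM in nlsYAP5SA, with a log2 fold change of -0.12 (SE 0.07, edgeR adjusted p = 0.325).

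Nfkb1 (ENSMUSG00000028163, chr3:135584655-135691547, minus strand), which encodes the p105 precursor of p50, had 13.2 to 16.5 CPM in control and 14.5 to 18.97 CPM in nlsYAP5SA, with 3 of the 5 nlsYAP5SA values above the highest control. Its log2 fold change was 0.19 (SE 0.09, edgeR adjusted p = 0.253). Rel (ENSMUSG00000020275, chr11:23736847-23770970, minus strand), the c-Rel subunit prominent in lymphoid cells, spread more among controls, 4.17 to 7.88 CPM, than in nlsYAP5SA, 5.92 to 8.05 CPM (log2 fold change 0.25, SE 0.15, edgeR adjusted p = 0.343). Relb (ENSMUSG00000002983, chr7:19606217-19629438, minus strand), the partner of p52 in the alternative route, went the other way from Nfkb2. Its controls read 3.31, 4.70, 3.502, 4.79 and 3.495 CPM and its nlsYAP5SA libraries 3.03, 3.53, 2.64, 3.52 and 3.89 CPM, all 5 below the control mean of 3.96 ± 0.72 CPM (SD, n = 5). The log2 fold change was -0.26 (SE 0.15, 95% interval -0.58 to 0.07, edgeR adjusted p = 0.319).

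The inhibitor Nfkbia (ENSMUSG00000021025, chr12:55489410-55492647, minus strand) encodes IkB alpha, the fast feedback inhibitor of Rela dimers. It stood at 19.7, 17.1, 13.5, 16.3 and 14.2 CPM in control, at 23.3, 18.8, 22.8, 14.7 and 21.6 CPM in nlsYAP5SA, and at 17.4, 19.2 and 15.8 CPM in C57BL/6. Replicates 1, 3 and 5 of nlsYAP5SA were above every control, and replicate 4 was below the control mean of 16.1 ± 2.47 CPM (SD, n = 5). The log2 fold change was 0.32 (SE 0.14, 95% interval 0.03 to 0.62), with an unadjusted p of 0.0352 and an edgeR adjusted p of 0.167. It was 0.21 (SE 0.17) with the Y-linked covariate and 0.21 (SE 0.13) with the level of the choroid plexus gene Ttr as a covariate (edgeR adjusted p = 0.721 and 0.360). Without nlsYAP5SA replicate 4 it was 0.42, and edgeR then called it (adjusted p = 0.0380).

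Nfkbie (ENSMUSG00000023947, chr17:45555703-45563169, plus strand), IkB epsilon, had 2.22 to 2.64 CPM in control and 2.47 to 3.16 CPM in nlsYAP5SA (log2 fold change 0.22, SE 0.12, edgeR adjusted p = 0.303). As with Nfkb2, its 3 values above the control range were the nlsYAP5SA libraries without Y-linked expression, and with that covariate the log2 fold change was 0.07 (SE 0.15). Nfkbib (ENSMUSG00000030595, chr7:28758251-28767512, minus strand), IkB beta, had 13.6 to 19.5 CPM in control and 14.5 to 15.9 CPM in nlsYAP5SA, so all 5 nlsYAP5SA values lay inside the control range. Its log2 fold change was -0.07 (SE 0.10, edgeR adjusted p = 0.706) and turned to 0.01 with a correction for GC content and length. Opposite-strand exons of Ccer2 and Sirt2 overlap 14.5% and 1.94% of its exons, so its counts carry the same uncertainty as those of Nfkb2.

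Nfkbiz (ENSMUSG00000035356, chr16:55811375-55838899, minus strand), an inducible IkB protein that acts in the nucleus with p50 dimers, was the lowest of the 10 per kilobase of exon. The controls had 1.88, 1.57, 2.501, 2.10 and 3.26 CPM, the nlsYAP5SA libraries 2.71, 2.59, 3.29, 2.57 and 3.19 CPM, and the C57BL/6 libraries 2.29, 1.82 and 2.14 CPM. All nlsYAP5SA values were above the control mean of 2.26 ± 0.65 CPM (SD, n = 5), but control replicate 5 reached into their range. The log2 fold change was 0.35 (SE 0.19, edgeR adjusted p = 0.273), and with the Y-linked covariate it was 0.39 (SE 0.25, edgeR adjusted p = 0.591). Nfkbiz was counted with only 38 to 76 reads per library.

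Ikbkb (ENSMUSG00000031537, chr8:22659212-22706589, minus strand), the kinase, had the smallest SE of the 10 and a lower level in nlsYAP5SA. Its controls had 30.6, 29.4, 30.3, 30.2 and 34.3 CPM, its nlsYAP5SA libraries 26.7, 28.5, 26.1, 30 and 27.7 CPM, and its C57BL/6 libraries 31.6, 28.5 and 33.1 CPM. Of the nlsYAP5SA libraries 4 were below the lowest control, and all 5 below the control mean of 31.0 ± 1.94 CPM (SD, n = 5). The log2 fold change was -0.16 (SE 0.06, 95% interval -0.29 to -0.02), a fold of 0.896, with an unadjusted p of 0.0245 and an edgeR adjusted p of 0.133. It was -0.14 (SE 0.08, edgeR adjusted p = 0.554) with the Y-linked covariate.

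With the Y-linked level taken into account, the NF-kB genes stayed uncalled while fewer genes were called in all. The covariate left 3.32% of all genes called, the covariate with all 13 libraries in a single fit 5.06%, and the fit of only the 7 libraries of both groups with Y-linked expression 1.97%; none of the 10 genes was among them, with adjusted p of at least 0.535, 0.229 and 0.648 by edgeR. The same 7 of the 10 had a higher fitted level in each of these fits, with medians of 0.12, 0.17 and 0.11 on the log2 scale. A correction for GC content and gene length, without this covariate, was the setting with most calls: edgeR then called Nfkb2 (log2 fold change 0.55, adjusted p = 0.0445) and Nfkbia (0.38, adjusted p = 0.0261) as higher and Ikbkb (-0.17, adjusted p = 0.0449) as lower, in a fit that called 15.2% of all genes.

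**Figure D2:**
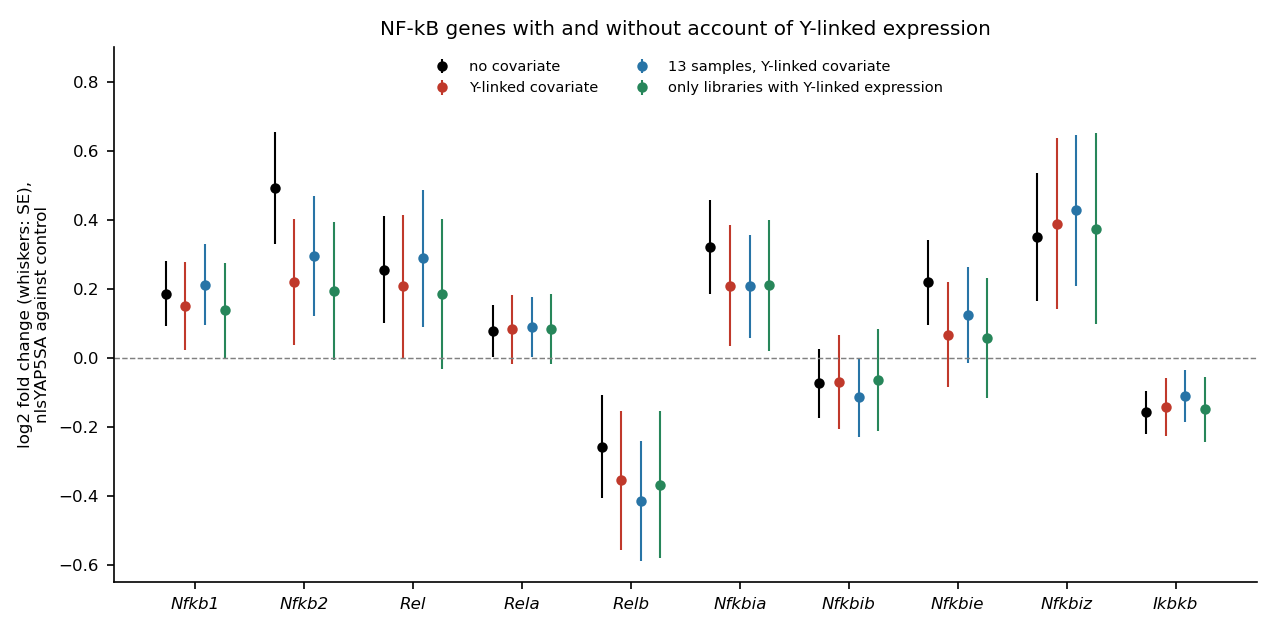
Log2 fold change with SE of each NF-kB gene between nlsYAP5SA and control in 4 fits, without a covariate and in the 3 that take account of Y-linked expression. Nfkb2 goes from 0.49 to between 0.19 and 0.30, whereas Rela stays between 0.08 and 0.09.

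The C57BL/6 mice show how far these genes vary between mice without Cre; this comparison shares its control libraries with the main comparison. Against control, none of the 10 was called, beside 0.169% of 16546 genes tested, and none reached an unadjusted p of 0.05, which 3.78% of genes did. Their log2 fold changes ran from -0.13 for Nfkb2 to 0.14 for Rel, with a median of 0.03, and every edgeR adjusted p was 0.9996. The comparison of nlsYAP5SA with C57BL/6 shares its nlsYAP5SA libraries with the main comparison. It called none of the 10 either, beside 6.38% of 16641 genes, while 4 of the 10 had an unadjusted p of 0.05 or less (Nfkb1, Nfkb2, Nfkbiz and Ikbkb), beside 21.0% of genes. All 5 nlsYAP5SA values exceeded all 3 C57BL/6 values for Nfkb2 and Nfkbiz, 2 of the 10 genes, where the ranges of 15.2% of all genes did not overlap. Nfkb2 had a log2 fold change of 0.61 (SE 0.19, edgeR adjusted p = 0.0945) and Nfkbiz of 0.45 (SE 0.16, edgeR adjusted p = 0.147). Rela was at -0.00 (SE 0.09, 95% interval -0.20 to 0.19).

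**Figure D3:**
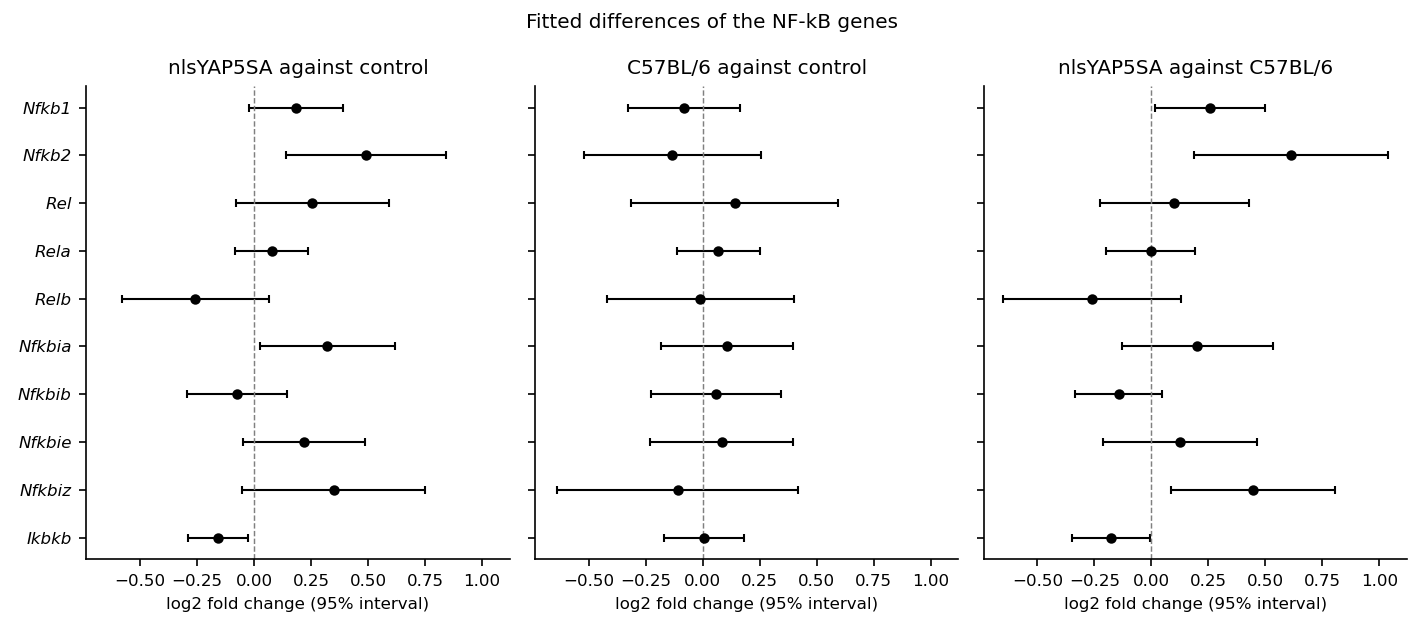
Log2 fold change of each NF-kB gene with its 95% interval in the 3 comparisons. The intervals of Nfkb2, Nfkbia and Ikbkb leave out 0 between nlsYAP5SA and control, and all 10 intervals between C57BL/6 and control include 0.

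Levels were compared between the genes only per kilobase of annotated exon. The length used is the union of all annotated exons, 12061 bases for Nfkb1 and 19078 for Ikbkb against 3072 for Rela. It can exceed the transcripts in use, which were not measured, so the order and shares depend on the annotation. In CPM alone, the control means of Nfkb1 and Rela were 15.03 and 14.74. In control, Nfkbia was highest at 10.03 ± 1.54 CPM per kb, followed by Nfkbib at 7.32 ± 1.12 and Rela at 4.799 ± 0.27 (SD, n = 5). Ikbkb followed at 1.62 ± 0.10, Nfkb1 at 1.25 ± 0.14, Relb at 1.02 ± 0.19, Nfkbie at 0.791 ± 0.064, Rel at 0.778 ± 0.19, Nfkb2 at 0.627 ± 0.11 and Nfkbiz at 0.451 ± 0.13 CPM per kb. The control ranges of Nfkbib and Rela, of Rela and Ikbkb, and of Ikbkb and Nfkb1 did not overlap, whereas those of Nfkbia and Nfkbib and of each neighbouring pair from Nfkb1 down did. The first 5 genes and the last kept this order in all 3 groups, while Relb, the sixth in control, was the ninth in nlsYAP5SA. Rela made up 56.7 ± 3.8% of the summed subunit level per kb in control, 55.5 ± 3.9% in nlsYAP5SA and 58.2 ± 2.1% in C57BL/6 (SD, n = 5, 5 and 3). Per kb, Nfkbia stood to Rela as 2.08 ± 0.21 to 1 in control, as 2.49 ± 0.48 in nlsYAP5SA and as 2.15 ± 0.22 in C57BL/6; these ratios are descriptions without a test.

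**Figure D4:**
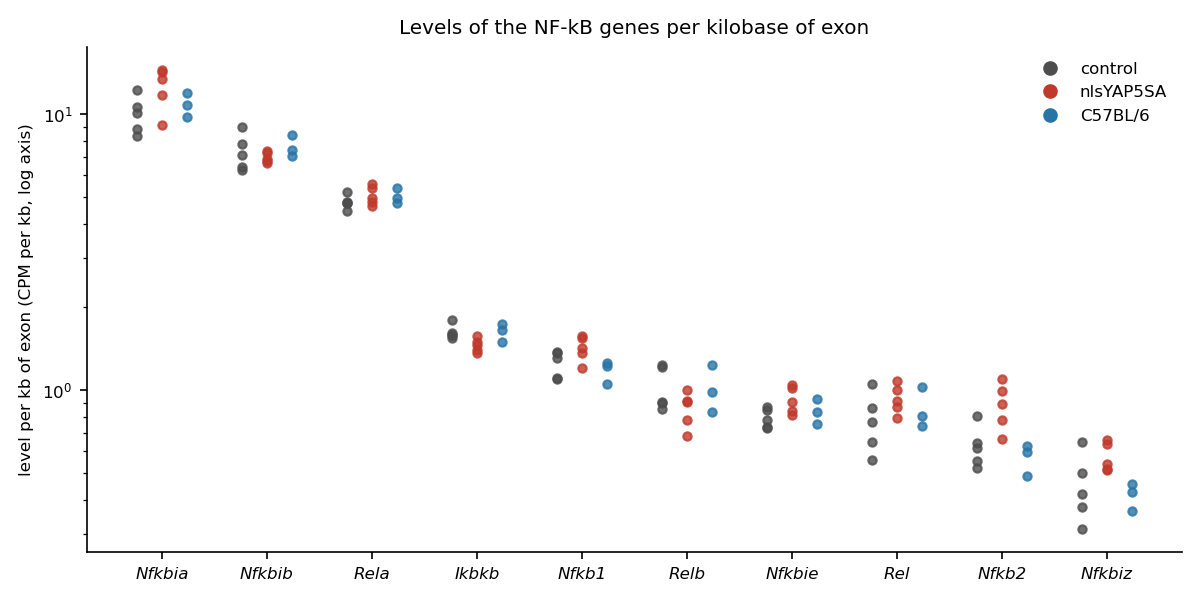
Level per kilobase of exon (CPM per kb, log axis) of each NF-kB gene in each library, ordered by the control mean. Nfkbia, Nfkbib and Rela lie above 4 CPM per kb in every library and the other 7 genes below 2.

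Promoter sequence is shown for the NF-kB genes that carry a match to the kappaB consensus, the site that NF-kB dimers bind, because several genes of the family are known targets of it. RefSeq start sites of GRCm38.p6 gave windows of 250 bases before the start for 6 of the 10 genes, in 8 windows. The consensus was searched on both strands and matched in 6 of these 8 windows, of Nfkb2, Rel, Nfkbia and Nfkbie, beside 7.25% of all 32851 windows and 9.03% of the windows of genes tested. Nfkbib and Rela had a window and no match in it. Of the 3 windows of Nfkb2, the second and the third share bases, and the first and the third lie in its own annotated exons over 250 and 234 of their bases. Capitals mark the letters of the match, each window reads 5′ to 3′ towards the start on the gene's own strand, and the positions are chr12:55492648-55492897 (minus) for Nfkbia, chr17:45555450-45555699 (plus) for Nfkbie, chr19:46305445-46305694 (plus) for the second of the Nfkb2 starts, and chr11:23770971-23771219 (minus) for Rel.
Nfkbia: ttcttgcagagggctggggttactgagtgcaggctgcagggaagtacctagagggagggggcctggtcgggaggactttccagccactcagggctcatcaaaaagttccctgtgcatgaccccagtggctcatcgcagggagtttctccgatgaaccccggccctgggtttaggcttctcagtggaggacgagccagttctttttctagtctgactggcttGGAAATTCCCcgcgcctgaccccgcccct
Nfkbie: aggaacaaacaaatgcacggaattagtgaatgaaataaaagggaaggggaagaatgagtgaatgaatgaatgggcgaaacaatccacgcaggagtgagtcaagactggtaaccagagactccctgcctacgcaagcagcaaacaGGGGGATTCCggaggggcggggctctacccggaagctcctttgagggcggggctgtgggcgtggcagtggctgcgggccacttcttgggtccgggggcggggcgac
Nfkb2: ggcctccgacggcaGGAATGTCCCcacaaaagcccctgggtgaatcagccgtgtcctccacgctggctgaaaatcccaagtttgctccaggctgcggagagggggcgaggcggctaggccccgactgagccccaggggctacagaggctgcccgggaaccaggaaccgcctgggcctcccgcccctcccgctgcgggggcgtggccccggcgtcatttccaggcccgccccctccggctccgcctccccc
Rel: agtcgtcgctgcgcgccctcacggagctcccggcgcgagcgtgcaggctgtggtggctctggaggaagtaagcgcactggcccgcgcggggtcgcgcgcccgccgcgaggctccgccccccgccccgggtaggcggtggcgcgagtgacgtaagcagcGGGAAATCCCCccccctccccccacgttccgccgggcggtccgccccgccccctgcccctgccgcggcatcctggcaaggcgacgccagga
The match in Nfkbia begins 29 bases before the start and that in Nfkbie 106 bases before it, while Rel holds 2 overlapping matches. The core GGAATG (or CATTCC on the other strand) of the sites of TEAD factors, the DNA-binding partners of YAP1, was found in 1 of the 8 windows, the second of Nfkb2, where its letters overlap the kappaB match; 12.6% of all windows hold it. These are matches of letters and not measured binding. The 4 genes with a kappaB match had log2 fold changes of 0.22 to 0.49 between nlsYAP5SA and control, none of them called. Rela (0.08) and Nfkbib (-0.07) had a window without a match. Without a window were Nfkb1 (0.19), Nfkbiz (0.35), Relb (-0.26) and Ikbkb (-0.16). A link between matches and changes was not tested.

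Around the 10 genes, 97 genes of the pathway were listed by role, of which 81 were tested: 21 were called higher in nlsYAP5SA and 0 lower, 25.9% of those tested beside 10.8% of all genes, with a median log2 fold change of 0.20. With the Y-linked covariate 8 of 81 remained called (Bcl3, Csf1, Cxcl10, Icam1, Il1r1, Lcn2, Tlr2 and Tnfrsf1b), beside 3.32% of all genes, and among only the libraries with Y-linked expression 6 of 81 (the same without Il1r1 and Tnfrsf1b), beside 1.97%. The covariate with all 13 libraries gave 12 of 82, beside 5.06%. Of the called genes, Bcl3, Cxcl10, Lcn2 and Zc3h12a passed the count filter only through the nlsYAP5SA libraries, which adds to these shares. They were not tested between C57BL/6 and control. Some of these genes are expressed by microglia or reactive astrocytes, and markers of both were higher in nlsYAP5SA. Of 8 microglial markers 6 were called higher and the summed level was 424 to 566 CPM in nlsYAP5SA against 300.3 to 377 in control and 326 to 376 in C57BL/6. Of 7 astrocyte markers 4 were called higher and S100b lower, and the sum was 2563 to 2966 CPM against 1597 to 1921 and 1742 to 1903. In bulk tissue, more or fewer cells of a type and more or less RNA per cell cannot be told apart, and the part of these cells in the pathway results was not tested.

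Most of the listed ligands of the pathway had too few reads to be tested. Only Il1a, Il18 and Tnfsf13b of 9 passed the filter on low counts and none was called; Il1a had 0.626 to 1.0 CPM in control and 0.904 to 1.96 CPM in nlsYAP5SA (log2 fold change 0.67, SE 0.24, edgeR adjusted p = 0.102). Il18 was at 8.96 to 10.8 CPM in control and 8.26 to 10.6 CPM in nlsYAP5SA, and Tnfsf13b at 0.783 to 1.56 and 0.997 to 1.69 CPM. Tnf, the main activating cytokine, had at most 1 read in any control and 8 in any nlsYAP5SA library, and Il1b at most 3 and 22. Lta, Ltb and Tnfsf11 reached at most 7, 20 and 4 reads in control and 4, 10 and 12 in nlsYAP5SA. Cd40lg, a T cell ligand, had no read in any of the 13 libraries, which allows up to 3 reads in each.

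Among the lists by role, receptors held the largest share of calls in the fit without account of Y-linked expression, but not with it. There 5 of 10 tested were called without that account, all higher, beside 10.8% of all genes. Tlr2, the receptor of bacterial lipoproteins, had 0.613, 1.02, 1.63, 1.68 and 1.89 CPM in control and 3.98, 4.52, 3.29, 5.96 and 5.01 CPM in nlsYAP5SA, without overlap (log2 fold change 1.74, SE 0.26, edgeR adjusted p = 0.000749). Il1r1, the signalling receptor of interleukin 1, rose by 0.97 (SE 0.13), and Tnfrsf1b, the second TNF receptor, by 0.91 (SE 0.14), on the log2 scale. Tlr4 and Tnfrsf1a, the receptors of endotoxin and TNF, were also called (0.91 and 0.54). Cd40, Edar, Il1rap, Ltbr and Tnfrsf11a were not called. With the Y-linked covariate Tlr2, Il1r1 and Tnfrsf1b kept the call, and among the libraries with Y-linked expression alone only Tlr2 did (edgeR adjusted p = 0.0467). In those libraries the log2 fold changes of Il1r1, Tnfrsf1b, Tlr4 and Tnfrsf1a were 0.83, 0.75, 0.79 and 0.41.

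Of the 9 genes of the kinase complex and its upstream kinases besides Ikbkb, only Tab2, an adaptor of the kinase TAK1, was called (log2 fold change 0.26, SE 0.05), and it was not called with the Y-linked covariate (0.25, edgeR adjusted p = 0.103) but was with the covariate in all 13 libraries (0.31, edgeR adjusted p = 0.0364). Chuk and Ikbkg, the other subunits of the kinase complex, had log2 fold changes of -0.12 (SE 0.09) and 0.09 (SE 0.06), and Map3k14, the kinase of the alternative route, 0.17 (SE 0.12). Among 25 adaptors and ubiquitin ligases tested, 4 were called higher: Ticam2 (1.19), Birc3 (0.74), Card9 (0.72) and Irak4 (0.70). None of these 4 adaptors was called with the Y-linked covariate, at log2 fold changes of 1.001, 0.43, 0.68 and 0.76, and Irak4 was called with the covariate in all 13 libraries (edgeR adjusted p = 0.0447). Negative regulators gave 2 calls of 9, Zc3h12a, an RNase that degrades cytokine mRNA (0.92), and Tnip2 (0.38), neither called with the Y-linked covariate, where their log2 fold changes were 0.63 and 0.41. Over all other fits Zc3h12a lost the call in 16 of 21 and Tnip2 in 12 of 22. Of the adaptors, Card9, Birc3 and Ticam2 lost it in 11, 6 and 3 of 22. Zc3h12a had at most 13 reads in a control. Tnfaip3, the deubiquitinase A20 and a feedback target like Nfkbia, had a log2 fold change of 0.10 (SE 0.12, edgeR adjusted p = 0.673).

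Bcl3, an IkB-like protein that works in the nucleus with p50 and p52 dimers, was called higher in nlsYAP5SA. It had 0.164, 0.235, 0.334, 0.210 and 0.283 CPM in control, 0.542, 0.659, 0.650, 1.57 and 0.515 CPM in nlsYAP5SA, and 0.359, 0.192 and 0.283 CPM in C57BL/6. The control and nlsYAP5SA ranges did not overlap, the highest value being nlsYAP5SA replicate 4, a library with Y-linked expression. Its log2 fold change was 1.67 (SE 0.38, edgeR adjusted p = 0.0126), it was called in each fit that took account of Y-linked expression, and at most 8 reads were counted in a control and 36 in an nlsYAP5SA library. No control reached the filter's minimum count of 10, so Bcl3 was tested only because its nlsYAP5SA libraries passed. Such a filter favours genes higher in that group, and Bcl3 was not tested between C57BL/6 and control. The other IkB-like genes, Nfkbid and Nfkbil1, were not called (log2 fold changes -0.32 and 0.04, SE 0.27 and 0.13).

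Of 30 listed target genes of NF-kB, known from other cells, 22 were tested and the others did not pass the filter on low counts. The tested targets held 8 calls, all higher, 36.4% beside 10.8% of all genes, with a median log2 fold change of 0.32. Lcn2, the lipocalin of acute phase and reactive astrocytes, had 0.0409, 0.117, 0.208, 0.0840 and 0.0945 CPM in control and 5.47, 2.78, 2.99, 0.565 and 5.71 CPM in nlsYAP5SA (log2 fold change 4.93, SE 0.64, edgeR adjusted p = 0.000315). The controls summed to 13 reads, and in the 3 fits that took account of Y-linked expression the log2 fold change was 3.954 to 3.999. The chemokine Cxcl10 rose by 3.22 (SE 0.55) and Csf1, the growth factor of microglia, by 1.68 (SE 0.15), from 10.1 to 13.8 CPM in control to 27.1 to 49.0 CPM in nlsYAP5SA. C3, Icam1, Gadd45b, Tapbp and Ccnd1 were the other calls, with log2 fold changes of 1.10, 0.91, 0.52, 0.33 and 0.31. The 14 targets not called ran from -0.52 for Nos2 (edgeR adjusted p = 0.111) to 0.54 for Irf1 (edgeR adjusted p = 0.0606). Next to Irf1 stood Ptgs2 (0.47), Ier3 (0.46) and Cflar (0.40), with edgeR adjusted p of 0.202, 0.0546 and 0.0717. Lcn2, Cxcl10, Csf1 and Icam1 kept their calls in all 3 fits that took account of Y-linked expression. The covariate gave 4 calls of 22, beside 3.32% of all genes. The libraries with Y-linked expression alone also gave 4 of 22, beside 1.97%. The covariate with all 13 libraries gave 5 of 23, beside 5.06%. Lcn2 and Cxcl10, with at most 5 and 11 reads in a control, passed the count filter only through the nlsYAP5SA libraries. Neither was tested between C57BL/6 and control.

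Genes listed in earlier work as separating RELA-fusion from YAP1-fusion ependymoma were compared as a list, and none of the 10 NF-kB genes belongs to it. Of 200 RELA-associated genes tested, 16 were called higher and 19 lower, 17.5% in all beside 10.8% of all genes, with a median log2 fold change of -0.00. Of 141 YAP1-associated genes tested, 39 were called higher and 1 lower, with a median of 0.18. The covariate for Y-linked expression gave 23 calls of 141, beside 3.32% of all genes, the libraries with Y-linked expression alone 23 of 141, beside 1.97%, and the covariate with all 13 libraries 31 of 144, beside 5.06%, all of them higher. Among the RELA-associated genes called, the largest rises were in Txnip, an inhibitor of thioredoxin, from 22.1 to 26.03 CPM in control to 37.4 to 55.7 CPM in nlsYAP5SA (log2 fold change 0.97, SE 0.10), in the interferon-induced Parp14 (0.94, SE 0.19) and in Vasn, a trap for TGF-beta (0.93, SE 0.09). Among the genes called, the largest falls were in the amino acid transporter Slc38a5 (-1.28, SE 0.30), in Lrrc17 (-0.85, SE 0.16) and in Inka2 (-0.49, SE 0.08). Slc38a5 had 8.73 to 11.3 CPM in control, 9.22 CPM in nlsYAP5SA replicate 4 and 2.34 to 3.81 CPM in the other nlsYAP5SA libraries. With the Y-linked covariate 9 of the 200 RELA-associated genes were called, 5 higher and 4 lower, beside 3.32% of all genes, and 3 of 200 among only the libraries with Y-linked expression (Scara3, Txnip and Vasn), beside 1.97%. The covariate with all 13 libraries in a single fit called 16 of the 200, 8 higher and 8 lower, beside 5.06%. Of the genes named above, Txnip and Vasn kept the call with the covariate, whereas Parp14, Slc38a5, Lrrc17 and Inka2 did not (edgeR adjusted p = 0.154, 0.295, 0.0921 and 0.0583), at log2 fold changes of 0.74, -0.88, -0.81 and -0.45. With all 13 libraries and the covariate Parp14, Lrrc17 and Inka2 were called and Slc38a5 was not. Ccnd1, the cyclin that is also on the target list, was called higher (log2 fold change 0.31, SE 0.08, edgeR adjusted p = 0.0272) and was not called with the covariate (0.33, edgeR adjusted p = 0.162).

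**Figure D5:**
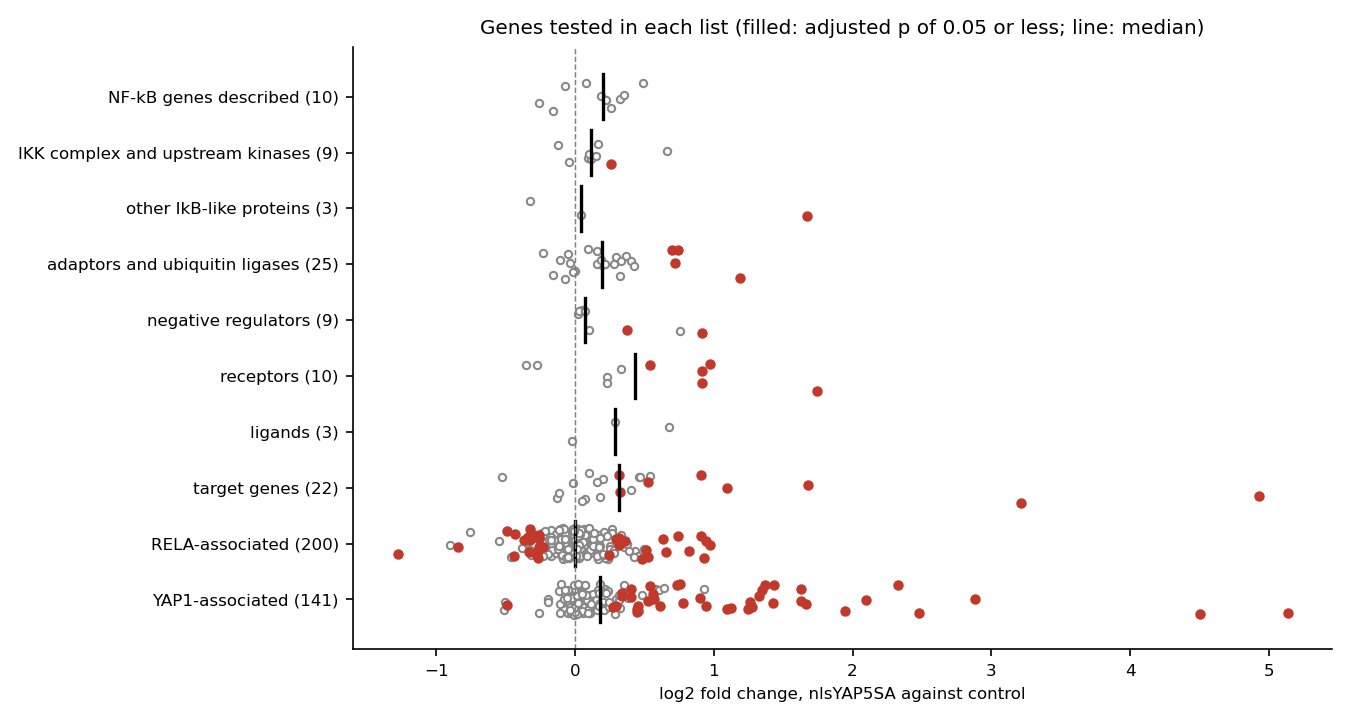
Log2 fold change between nlsYAP5SA and control of every gene tested in each list, with the number tested; filled points are genes called and the line is the median of the list. The 10 NF-kB genes have no filled point and a median of 0.20, and the RELA-associated list is centred at -0.00 with calls on both sides.

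The genes whose pattern was most like that of Nfkb2, the NF-kB gene with the smallest p, were ranked by the Pearson correlation of log2(CPM + 0.5) over the 13 libraries after each group's mean was removed. Among 14855 genes they were Timp3, an inhibitor of metalloproteases (r = 0.86), Ocln, a tight junction gene (r = 0.85), and Postn, a matrix protein (r = 0.84). Timp3 was itself called higher (log2 fold change 0.92, SE 0.08), whereas Ocln (0.09, SE 0.09) and Postn (0.20, SE 0.12) were not. The points share the scaling of each library, and the correlation is a description.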

How the data were processed

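RNA of the right hemisphere was measured in 13 libraries (5 control, 5 nlsYAP5SA, 3 C57BL/6), assigned to groups by the genotype in the labels. The authors removed adapters (CutAdapt 1.5), aligned to GRCm38 (STAR) and quantified genes (RSEM 1.3.0); the deposited values are estimated counts per gene, not normalized, of which 12.4% to 13.3% in a library are not whole. Neither a strand setting nor batches are given in the sources used here. Totals, 20871566 to 25524349, limit precision by counting error only, and p-values measure the spread between mice.

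Counts were rounded and fitted in R 4.3.3 with edgeR 4.0.16: TMM, filterByExpr (minimum count 10, minimum total 15), quasi-likelihood test, two-sided, on the groups compared. Standard errors were taken from the F statistic. Alternatives were DESeq2 1.42.0, other scalings and filters, all 13 libraries in a single fit, a replicate block, covariates (4 Y-linked genes, Ttr), a GC and length offset and leaving out each mouse; 2 further fits for Y-linked expression were chosen after the data were seen. Levels per kb used GENCODE M21, a later annotation than the authors'. The fit was checked on simulated counts.

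The members, lists, markers and tests were chosen with earlier results of these data known. Named were all 10 genes, Yap1, C11orf95 and L1cam, the 3 called genes with the largest rise and fall of each pathway list and the RELA-associated list, all ligands, 3 genes most like Nfkb2, and markers; other genes were named after their values were seen. Marker lists were microglia, perivascular macrophages, monocytes and neutrophils, lymphocytes, astrocytes, neurons, oligodendrocytes and their precursors, endothelium, choroid plexus and ependyma; some markers are not reported here by name. The YAP1- and RELA-associated names came from the study's supplement.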

Additional observations from a re-analysis of the deposited data

Results flagged for a closer look

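In 20 groups of 5 libraries, the 10 NF-kB genes in control and in nlsYAP5SA, 1 had a library that stood apart by Dixon's criterion, which chance meets in about 1 in 20 groups. It was Ikbkb in control replicate 5, at 34.3 CPM, while the other controls lay between 29.4 and 30.6 CPM; the gap made up 0.753 of the group's range. Without this library Ikbkb remained uncalled.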

How the results depend on the processing

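Between nlsYAP5SA and control, the count of NF-kB genes called, 0, became 1 with DESeq2's Wald test (Nfkb2) and 3 with the GC and length offset (Nfkb2, Nfkbia and Ikbkb), and was 0 to 1 without a mouse. All genes called, 1761, rose to 2259 with the Wald test and 2478 with the offset, and went to 542 with the Y-linked covariate, 857 with this covariate in all 13 libraries and 334 in the libraries with Y-linked expression, and to 1210 to 1891 without a mouse. In the same order, pathway and target genes called, 21, went to 8, 12 and 6 (14 to 25 without a mouse), and RELA-associated genes called, 35, to 9, 16 and 3 (23 to 40); the offset gave 53. Between C57BL/6 and control, 28 calls became 59 with DESeq2's Wald test, 44 with all 13 libraries and 15 with the replicate block, and 19 to 27 without a mouse. Between nlsYAP5SA and C57BL/6, 1061 became 1596 with DESeq2's Wald test and 47 with the block, and 401 (without C57BL/6 replicate 1) to 1757 (without C57BL/6 replicate 3); of the NF-kB genes 1, Nfkb2, was called with all 13 libraries, and 0 to 1 without a mouse. Replicate numbers are only shared numbers: deviations of same-numbered nlsYAP5SA and control libraries correlated between -0.31 and 0.31, and the block called 1239 genes there.

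The log2 fold changes below turned sign and were uncalled. Against control they were Nfkbib (0.012 with the offset, -0.13 to 0.016 without a mouse), Il18 (0.029 with the offset, -0.058 to 0.028 without a mouse) and L1cam (0.0105 with all 13 libraries and the Y-linked covariate). Of the pathway genes given in the text, Nfkbil1 (-0.03 with all 13 libraries and the Y-linked covariate), Edar (0.05 with the Y-linked covariate) and Tnfaip3 (-0.02 in the libraries with Y-linked expression) also did, all uncalled. In C57BL/6 against control they were Relb (0.038) and Nfkbiz (0.083) with the block, and without a mouse Rel (-0.027 to 0.28), Relb (-0.17 to 0.10), Nfkbib (-0.018 to 0.14), Nfkbiz (-0.23 to 0.053) and Ikbkb (-0.060 to 0.064). In nlsYAP5SA against C57BL/6 it was Rela (0.0007 with DESeq2's size factors, 0.0012 with its Wald test, 0.012 with all 13 libraries, -0.039 to 0.052 without a mouse). The causes were not tested. Depth limits most the genes with the lowest counts, 38 to 76 reads per library for Nfkbiz, 47 to 70 for Nfkbie and 50 to 107 for Nfkb2.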

Other observations

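Marker genes of other cell types describe the tissue in which the NF-kB genes were measured. Gfap, the intermediate filament of reactive astrocytes, rose from 170.2 to 189 CPM in control to 648 to 831 CPM in nlsYAP5SA (log2 fold change 2.06, SE 0.07). Among the microglial markers Itgam, Aif1, Csf1r, Cx3cr1 and Tmem119 were among those called higher, whereas P2ry12 and Siglech, which mark resting microglia, were not (0.07, SE 0.11 and 0.12, SE 0.08). Of 4 markers of perivascular macrophages only Cd163 was called (1.07, SE 0.26), and the sum was 16.2 to 25.6 CPM against 12.6 to 21.8 in control. Of 6 monocyte and neutrophil markers only Ccr2 was tested and called (2.90, SE 0.81), with 4.38 CPM in nlsYAP5SA replicate 2 and at most 1.17 CPM in any other library, and Ly6g had no read in any library. None of 6 lymphocyte markers passed the filter, and none exceeded 12 reads.

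Neuronal markers gave 1 call of 8, Neurod6 as lower (-0.98, SE 0.09). Each nlsYAP5SA mouse carried Cre at 1 Neurod6 allele and no control did. A change in neurons and the Cre allele itself therefore cannot be told apart in this marker. Oligodendrocyte markers gave none of 6, with a median of -0.54 and sums of 1332 to 2870 CPM against 2078 to 3483 in control, and precursor markers 1 of 4, Olig1 as lower (-0.29, SE 0.06). Endothelial markers gave 2 of 6, Cldn5 and Cdh5, both lower (-0.44, SE 0.06 and -0.45, SE 0.12). Choroid plexus gave 1 of 6, Folr1 (2.203, SE 0.50), and ependyma 1 of 6, Foxj1, the regulator of motile cilia (0.78, SE 0.16), both higher. Ttr ranged from 0.783 to 276 CPM and was above 50 CPM in 2 controls, 4 nlsYAP5SA and 2 C57BL/6 libraries.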
